A study of Mus musculus with 6 samples.

Results

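Cytosolic ribosomal proteins were followed through 89 genes with 178 array probes, out of 17848 named genes and 44955 probes kept from 6 mouse arrays. A probe belonged to the group if its RefSeq accession matched a mouse symbol starting with Rpl or Rps and a digit, or Rplp0, Rplp1, Rplp2 or Rpsa, with the Rps6k kinases left out. It was kept if its spot was well above background on 3 arrays or more, whatever their group. The pattern matched 180 probes for 91 genes. The 2 probes not kept, for the paralogs Rpl3l and Rpl39l, were well above background on none of the arrays, and 176 of the others were above it on all 6. The kept probes covered 31 small subunit genes with 61 probes, 45 large subunit genes with 102 probes, 8 named paralogs with 9 probes and 5 further genes with 6 probes. Those 5 are Rpl31-ps12, Rpl34-ps1, Rps15a-ps6, Rps23rg1 and Rps19bp1, and the last of them encodes a protein that binds Rps19 and is not itself part of the ribosome.

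The cytosolic ribosome is built in the nucleolus from ribosomal RNA and from proteins that are made in near equal amounts, and its abundance sets how much protein a cell can make. Most mammalian ribosomal protein mRNAs carry a run of pyrimidines at their 5′ end, through which mTOR signalling and the RNA-binding protein Larp1 control their translation, so mRNA level and protein output can part. When assembly is disturbed, free Rpl5 and Rpl11, bound to 5S ribosomal RNA, block the ubiquitin ligase Mdm2 and stabilise p53. Rps27l, a paralog of Rps27, is itself a known p53 target gene. In the resting hair follicle, stem cells of the bulge and the hair germ wait in a state of low growth and resume protein synthesis when a new hair cycle starts.

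The arrays read RNA from mouse epidermal cells sorted for a bright K15-EGFP reporter (keratin 15 marks bulge stem cells), high integrin alpha 6 (ITGA6) and no Sca1, which the labels name hair follicle stem cells and hair germ (HFSCs/Hg). All mice were male and all had been depilated. One group then received acetone as vehicle and the other received DMBA, a carcinogenic polycyclic hydrocarbon, on the skin. Cells were taken at 3 days and read on 3 arrays a group. Age and strain are not given in the sources used here, the gate collects bulge and germ cells together, and the reporter chooses cells by keratin 15 activity, so cells that lost that activity are not represented. By its title the series is about stem cell fates under stress, between greying of hair and melanoma, and DMBA against vehicle asks which genes of the follicle cells respond to the carcinogen.

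A level is given here as the log2 of a probe's processed intensity minus the log2 of the 75th percentile of its array, and a difference is the DMBA mean minus the vehicle mean on that scale. The 75th percentile intensity was 1355 on DMBA 1 and between 1758 and 2274 on the other arrays, and the share of probes well above background ran from 69.3% to 83.6%. Vehicle 1 lay on a slide and in a scan of its own. Of the 13 stem cell and basal markers, 12 had a probe and all 12 were above background on every array, with a log2 summed level between 8.48 and 8.70 in vehicle and of 9.08, 8.53 and 8.57 in DMBA. Across the 178 probes, Pearson's r lay between 0.978 and 0.993 for 2 arrays within a group and between 0.978 and 0.994 for 2 arrays across groups. A shift shared by all probes of an array leaves these values unchanged. They are correlations across probes, which are not independent replicates.

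The sequences at the annotated transcript starts show the feature by which this gene family is best known. A tract was called where the annotated start is a C and at least 4 further bases, each C or T, follow on the transcribed strand. A gene with several annotated starts was counted if any of them had the tract. Such a tract began exactly at the annotated start in 13 of 56 core subunit genes (23.2%) that RefSeq promoter entries of build GRCm38.p6 covered. The share was 2.67% among 17492 protein-coding genes, 6.67% of 30 translation factor genes and 0 of 69 mitochondrial ribosomal protein genes. When a tract could begin within 10 bases of the annotated start on either side, it was found in 34 of 56 core genes (60.7%), in 44.9% of the 69 mitochondrial ribosomal protein genes and in 34.9% of all protein-coding genes. The starts of 8 genes described below are printed to show both kinds, each as 10 bases before the start and 20 bases from it, 5′ to 3′ on the transcribed strand, with the tract in capitals. The capitals run from the C nearest to the annotated start that opens such a tract, so pyrimidines can also stand before them.
Rps6 (chr4:86857348-86857377, minus strand): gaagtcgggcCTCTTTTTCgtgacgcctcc
Rps15a (chr7:118116128-118116157, minus strand): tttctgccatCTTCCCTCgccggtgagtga
Rps27 (chr3:90213629-90213658, minus strand): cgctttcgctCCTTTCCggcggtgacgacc
Rps27l (chr9:66946076-66946105, plus strand): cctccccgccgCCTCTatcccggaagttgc
Rplp2 (chr7:141447641-141447670, plus strand): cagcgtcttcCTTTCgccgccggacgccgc
Rpl27a (chr7:109519185-109519214, plus strand): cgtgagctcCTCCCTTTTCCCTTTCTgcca
Rpl5 (chr5:107900518-107900547, plus strand): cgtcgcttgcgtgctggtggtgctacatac
Rpl11 (chr4:136053374-136053403, minus strand): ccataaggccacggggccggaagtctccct
The tract began at the annotated start in Rps6, Rps15a, Rps27 and Rplp2, 1 base after the printed start in Rps27l and 1 base before it in Rpl27a. Another annotated start of Rps27l (chr9:66946403-66946432, plus strand), not printed, had no tract within 10 bases. For Rpl5 and Rpl11 no tract began within 10 bases of the annotated start, which says only that these letters are not there. A match to these letters describes the sequence and is not a measurement of translation.

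After DMBA, the median level of the ribosomal protein probes lay within the range of the vehicle arrays on 2 of the 3 arrays and above it on the other. The median level over the 178 probes was 5.24, 5.27 and 5.43 on vehicle 1 to 3, and 5.79, 5.26 and 5.26 on DMBA 1 to 3. On this measure only DMBA 1 stands apart, and the other 2 DMBA arrays lie between the vehicle values. Measured per probe against its vehicle mean, the median was -0.031, -0.057 and 0.106 on vehicle 1 to 3. It was 0.463, -0.081 and -0.066 on DMBA 1 to 3, so DMBA 2 and DMBA 3 lay slightly below all vehicle arrays. The group means were 5.31 ± 0.10 (SD, n = 3) in vehicle and 5.44 ± 0.31 in DMBA. Before scaling, the median log2 intensity of the same probes was 16.40, 16.33 and 16.21 in vehicle and 16.20, 16.37 and 16.32 in DMBA. On that unscaled measure DMBA 1 was the lowest of the 6 arrays, and its 75th percentile was the lowest as well. Fewer cells of a type and less RNA per cell cannot be told apart in RNA of pooled cells.

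**Figure D1:**
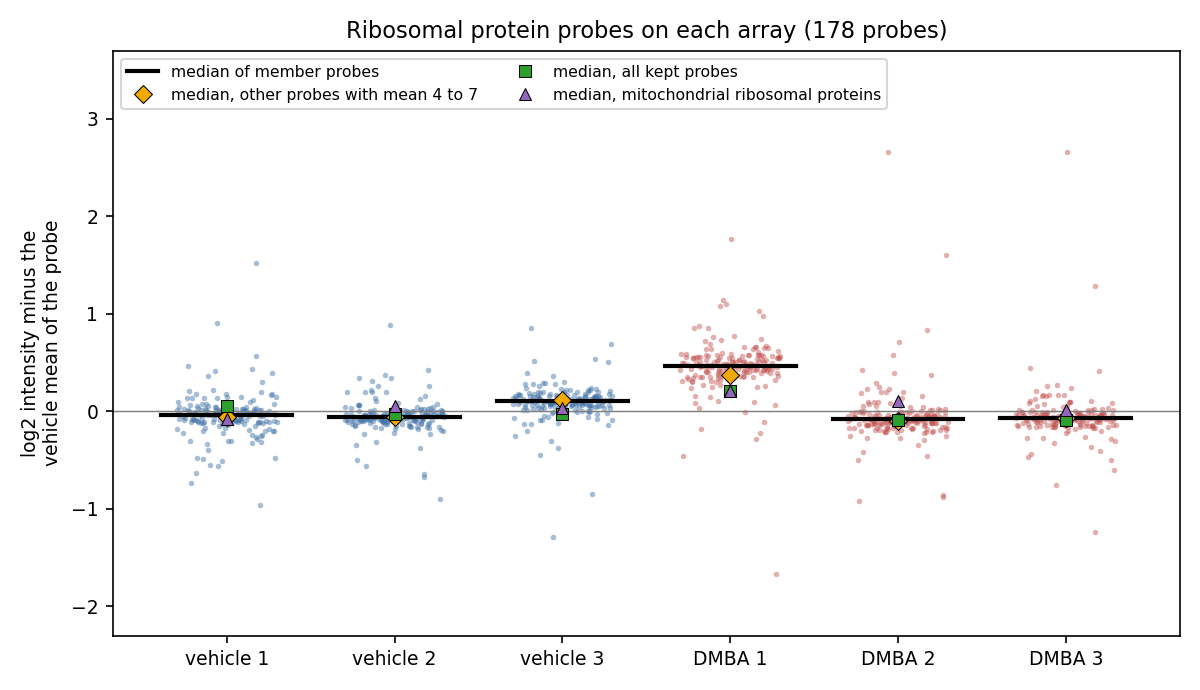
Each point is 1 of the 178 ribosomal protein probes, as its log2 intensity on an array minus its mean over the 3 vehicle arrays; bars and symbols are medians of the probe sets in the key. The member median is 0.46 on DMBA 1 and between -0.08 and 0.11 on the other arrays, and other probes with mean levels of 4 to 7 follow it on DMBA 1 at 0.38.

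Taken probe by probe, 158 of the 178 had a higher mean after DMBA and 20 a lower one (88.8% higher, against 51.5% of all kept probes). The differences were small: their median was 0.101 on the log2 scale, with quartiles at 0.054 and 0.159, against a median of 0.013 over all kept probes. The split depended on the scaling, since 55.6% were higher under quantile normalization, 53.9% with normexp background correction and quantile normalization, and 77.0% with median centring. None of the 178 passed limma's test at an adjusted p of 0.05, where 0% of all kept probes were called. At an unadjusted p of 0.05, 1 probe was higher (2.68% of all kept probes were) and 0 were lower (2.22%), while 4.9% of all kept probes reached that p in either direction. The 3 DMBA values all exceeded the 3 vehicle values for 3 probes (4.79% of all kept probes) and all lay below them for 0 (4.25%). With this scaling, these shares of the members were not above the background. The share wholly above depended on the scaling: 7.3% against 5% of all kept probes with quantile normalization, and 0.562% against 4.01% with median centring.

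The DMBA 1 array carried most of that direction. Of the 178 probes, 159 (89.3%) had their highest value on DMBA 1, against 32.9% of all kept probes. On that array the median probe stood 0.46 above its vehicle mean, while it stood -0.081 and -0.066 from it on DMBA 2 and DMBA 3. Without DMBA 1, only 38 of the 178 (21.3%) had a higher mean after DMBA, against 40.9% of all kept probes, and the median difference was -0.075, against -0.083 over all kept probes. Unadjusted p-values under 0.05 then numbered 2 among the members (6.96% of all kept probes). DMBA 1 exceeded the mean of DMBA 2 and DMBA 3 in 172 of the 178 probes, against 65.8% of all kept probes. The median excess was 0.53 over the members and 0.28 over all kept probes. It was more than 0.5 in 104 members, a count for which the share over all kept probes was not computed.

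Probes for other genes with strong signals did much the same on that array. The 2072 other probes with a mean level from 4 to 7 had a median difference of 0.078 and stood 0.38 above their vehicle means on DMBA 1, where 77.7% of them were highest. The 146 ribosomal protein probes in the same range had a median difference of 0.101, stood 0.46 above vehicle on DMBA 1 and were highest there in 97.9% of cases. When each array was centred on those other strong probes, a setting chosen after seeing the data, the median difference of the members was 0.032 and 68.0% were higher. The summed level of the stem cell and basal markers was also highest on DMBA 1. Among markers of other cells, the fibroblast sum was 2.93 on DMBA 1 and between 1.85 and 2.39 elsewhere, with 6 of 9 genes above background on all arrays and Pdgfra on none. The erythroid sum was 2.41 on DMBA 1 and 2.15 on vehicle 1, and between -0.95 and 1.1 on the other arrays, with 4 of 6 genes above background throughout and Hbb-bt on none. The melanocyte sum was 2.58 on DMBA 1, from 1.56 to 2.16 in vehicle, and 2.76 and 2.05 on the other DMBA arrays. Other sums were also highest on another array. The leukocyte sum was 3.08 on DMBA 1 and 3.56 on vehicle 3. The suprabasal sum was 5.80 on DMBA 1 and 5.88 on vehicle 2, and the endothelial sum 1.73 on DMBA 1 and 1.94 on DMBA 3. The part of these cells in the levels on DMBA 1 was not tested.

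**Figure D2:**
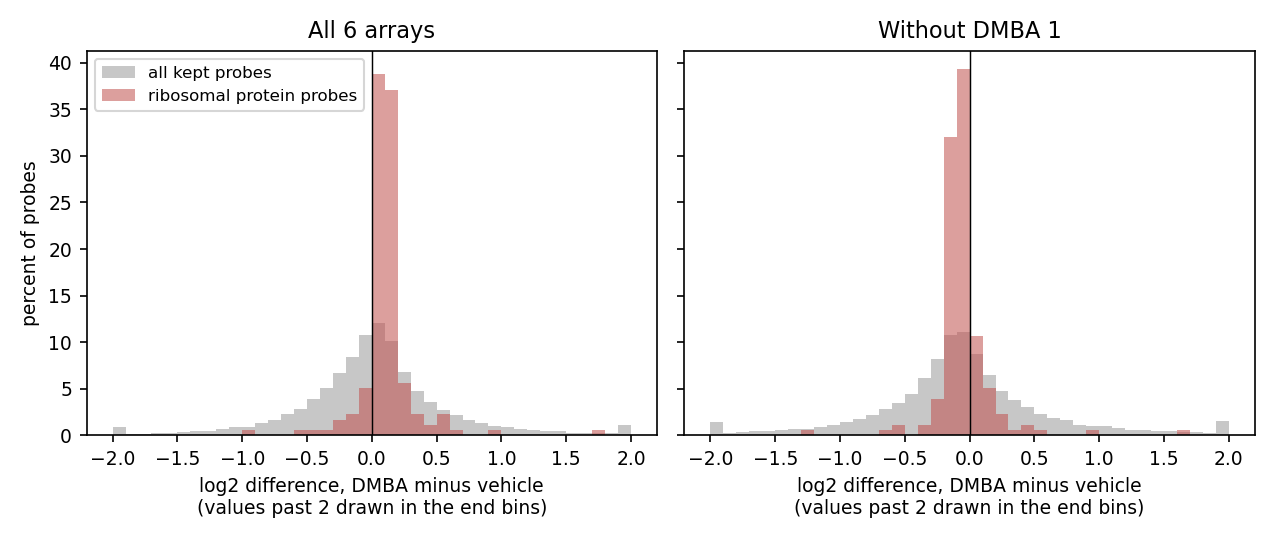
Percent of probes in bins of the log2 difference, DMBA minus vehicle, for the 178 ribosomal protein probes and for all 44955 kept probes, with all 6 arrays (left) and without DMBA 1 (right). The narrow peak of the ribosomal proteins has its median at 0.101 on the left and at -0.075 on the right.

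The median residual SD of the ribosomal protein probes was 0.26 on the log2 scale, against 0.47 over all kept probes. Among probes with a mean level from 4 to 7 it was 0.245 for members and 0.227 for the others, and it was 0.26 for mitochondrial ribosomal proteins and 0.27 for translation factors. The 95% limma interval of the difference lay inside a log2 change of 1 in either direction for 157 of the 178 probes, and the median interval ran from -0.53 to 0.74. For those 157 probes a change past that size lies outside the interval, while smaller ones of either sign lie within it.

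The small and the large subunit had similar medians. The small subunit had 55 of 61 probes higher with a median difference of 0.115, and the large subunit 92 of 102 with a median of 0.098. Without DMBA 1 the medians were -0.066 and -0.078. Paralogs had 7 of 9 probes higher with a median of 0.094, and the pseudogenes and others 4 of 6 with a median of 0.101. Genes with and without a pyrimidine tract within 10 bases of the start also had similar medians: the 69 probes of 34 such core genes had a median difference of 0.121, and the 47 probes of 22 core genes without it 0.099, or -0.064 and -0.086 without DMBA 1. No difference between these classes was tested.

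**Figure D3:**
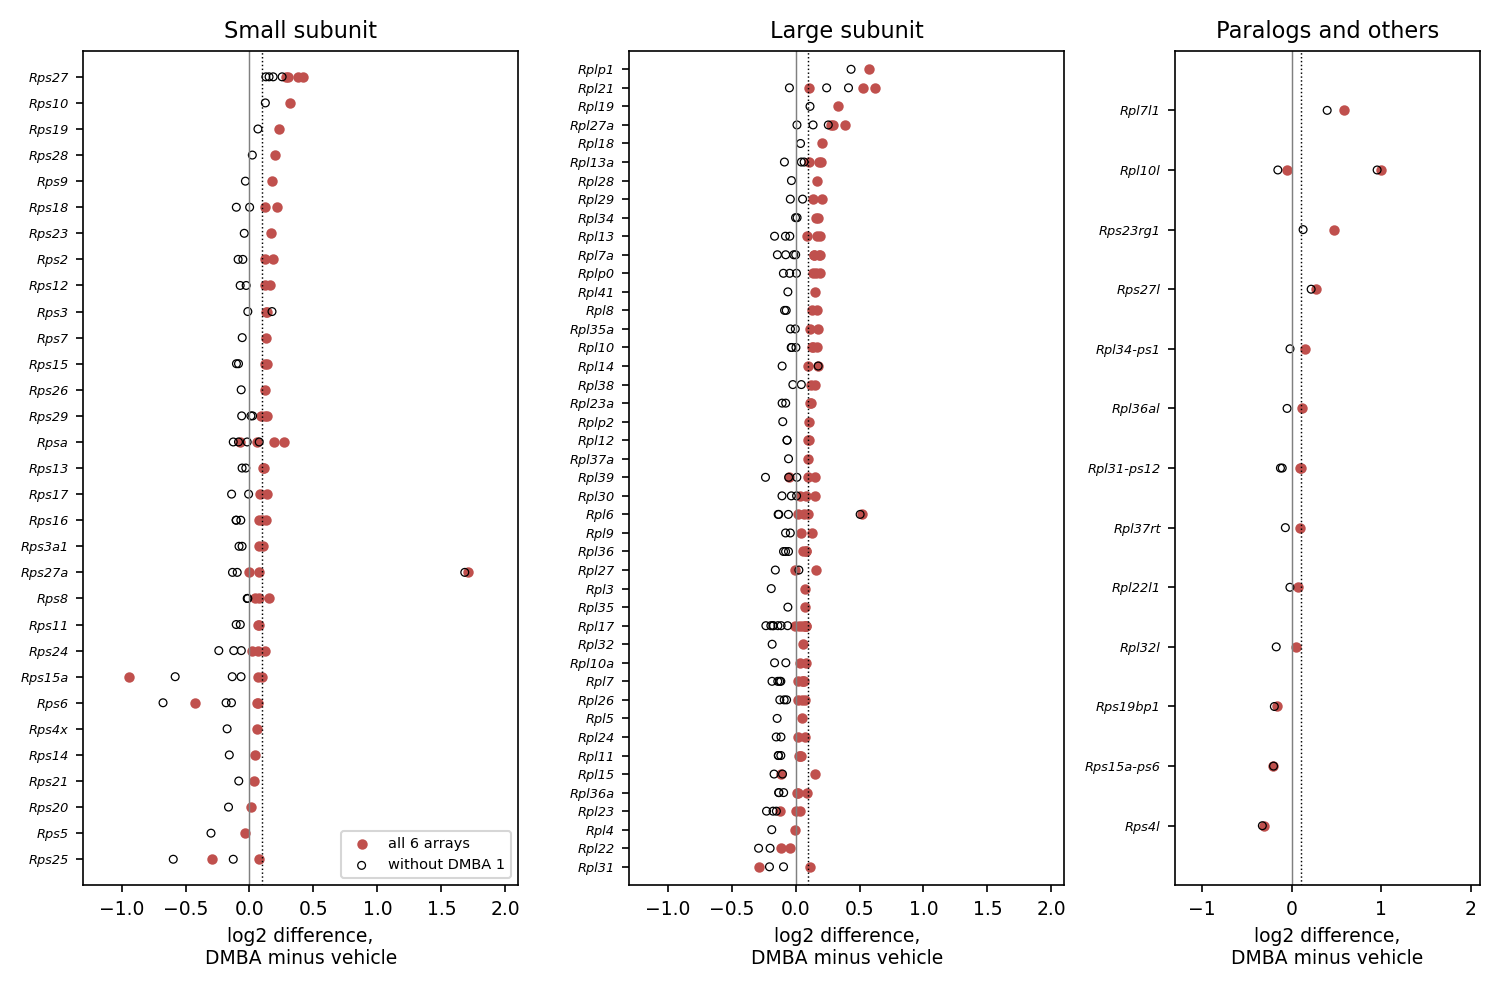
Log2 difference, DMBA minus vehicle, of the kept probes by gene in 3 panels; filled circles use all 6 arrays, open circles leave out DMBA 1, and the dotted line marks the median of 0.101. Most genes sit close to the line and move below 0 without DMBA 1; the probe of Rps27a at 1.71 and that of Rps15a at -0.94 are the far points of the small subunit.

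Rps27a encodes ubiquitin fused to a small subunit protein and held the 1 probe with an unadjusted p under 0.05. Probe A_55_P2025173 read -2.87, -2.92 and -2.60 in vehicle and -1.03, -2.09 and -0.14 in DMBA. All 3 DMBA values lay above all vehicle values, with a wide spread among them. The difference was 1.71 (SE 0.50), or 3.27-fold, with a limma adjusted p of 0.851. Its 95% interval ran from 0.49 to 2.93, and the difference was 1.68 without DMBA 1 or without vehicle 1. The other 2 probes of the gene did not share it. Probe A_55_P2025174 read 5.47, 5.08 and 5.33 in vehicle and 5.56, 5.15 and 5.18 in DMBA, a difference of -0.001 (SE 0.24), and A_55_P1976108 differed by 0.077 (SE 0.26). Values of the gene therefore depend on the probe, and the mRNA of Rps27a as the other 2 probes read it was not separated between the groups.

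Rps27l, the p53-inducible paralog, was one of the other 2 members whose groups did not overlap. It read 3.91, 3.98 and 4.20 in vehicle and 4.39, 4.23 and 4.26 in DMBA. The lowest DMBA value lay only just above the highest vehicle value. The difference was 0.27 (SE 0.21), with a limma adjusted p of 1 and a 95% interval from -0.25 to 0.79. Relative to the median ribosomal protein probe on the same array, it stood at -1.34, -1.29 and -1.23 in vehicle and at -1.40, -1.03 and -0.999 in DMBA. On that measure DMBA 1 was the lowest of all 6 arrays and DMBA 2 and DMBA 3 were the highest. Of other genes that p53 induces, the cell cycle inhibitor Cdkn1a read -1.53, -1.41 and -1.26 in vehicle and 0.99, 1.85 and 1.84 in DMBA on probe A_55_P1986282, a difference of 2.96 (SE 0.31; limma adjusted p = 0.305). On its other probe, A_51_P363947, Cdkn1a differed by 1.885 (SE 0.317), with a limma adjusted p of 0.498. Cyclin G1 (Ccng1) differed by 1.79 (SE 0.35; limma adjusted p = 0.607) and the p53 ligase Mdm2 by 0.16 (SE 0.39). None of these passed the threshold over all probes either.

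Rps27, the core partner of Rps27l, had 1 low vehicle array and 1 high DMBA array. Its 4 probes differed by 0.42, 0.38, 0.30 and 0.29, each with a limma adjusted p of 1. The probe with the largest difference, A_55_P2155438, read 4.46, 5.22 and 5.38 in vehicle and 5.76, 5.25 and 5.30 in DMBA. Vehicle 1 is low and DMBA 1 is high, and the other 4 values lie together. Without vehicle 1 alone the 4 probes differed by 0.13, 0.10, 0.057 and 0.051, and without both arrays they differed by -0.027, -0.091, -0.114 and -0.085.

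Rplp1, an acidic protein of the stalk that recruits elongation factors, had the same shape and was the third member whose groups did not overlap. It read 4.34, 5.42 and 5.47 in vehicle and 5.93, 5.50 and 5.52 in DMBA. Its difference was 0.57 (SE 0.38; limma adjusted p = 1) with all arrays, 0.21 without vehicle 1 and 0.066 without vehicle 1 and DMBA 1. The other stalk proteins did not share the low value on vehicle 1. Rplp2 read 5.40, 5.38 and 5.51 in vehicle and 5.96, 5.36 and 5.30 in DMBA, a difference of 0.11 (SE 0.26). Rplp0, the base of the stalk and a gene often used as a reference in PCR, differed by 0.14, 0.16 and 0.19 on its 3 probes (SE 0.25 to 0.27). All 3 were highest on DMBA 1.

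Vehicle 1 lay more than 0.5 below the mean of vehicle 2 and vehicle 3 in 11 members and more than 0.5 above it in 8, while 18.4% and 24.2% of all kept probes did so. The 4 Rps27 probes, Rplp1, Rpl27a, Rps10 and Rpl7l1 were among the 11. Rpl27a, a large subunit protein, read 5.04, 5.54 and 5.73 in vehicle and 6.08, 5.69 and 5.69 in DMBA on its probe with the smallest p, a difference of 0.39 (SE 0.28), or 0.057 without vehicle 1 and DMBA 1. Rpl19, a large subunit protein, read 5.11, 5.51 and 5.64 in vehicle and 6.19, 5.55 and 5.51 in DMBA, a difference of 0.33 (SE 0.30), or -0.040 without those arrays. Rpl7l1, a paralog of Rpl7, differed by 0.59 (SE 0.46), or -0.085 without them. Because vehicle 1 has a slide of its own, the difference within the other slide is that of the remaining 5 arrays, and its median over the 178 probes was 0.080.

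**Figure D4:**
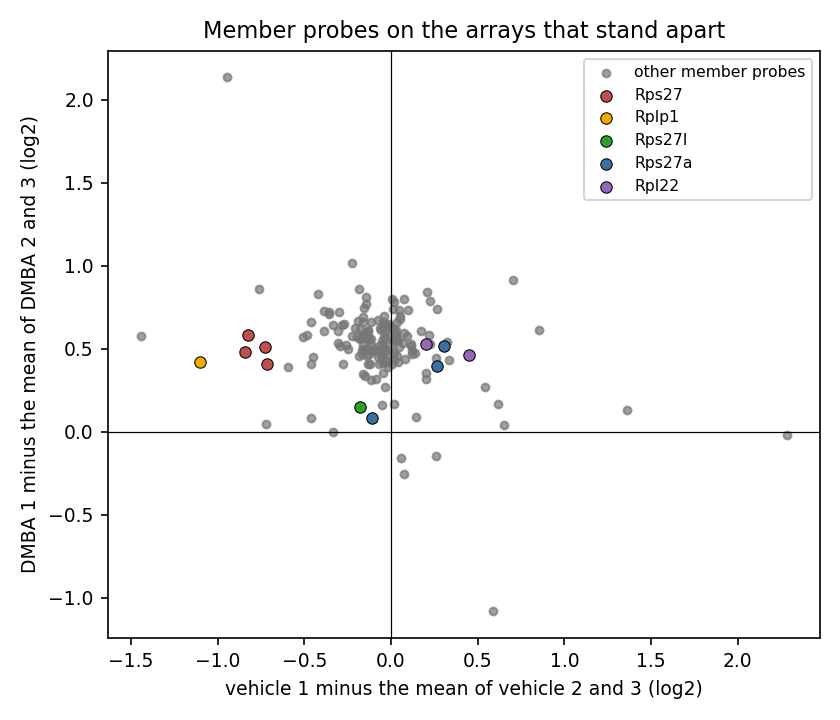
For each ribosomal protein probe, vehicle 1 minus the mean of vehicle 2 and 3 (horizontal, log2) against DMBA 1 minus the mean of DMBA 2 and 3 (vertical, log2), with 5 genes coloured. Most points lie near 0 across and near 0.53 up; Rplp1 and the 4 Rps27 probes lie to the left, low on vehicle 1.

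The proteins that link ribosome assembly to p53 had differences smaller than their standard errors. Rpl5, which binds 5S ribosomal RNA, read 4.87, 4.76 and 4.92 in vehicle and 5.29, 4.71 and 4.70 in DMBA. DMBA 1 was above and the other 2 DMBA arrays were below all vehicle arrays. The difference was 0.050 (SE 0.26). Rpl11, its partner, differed by 0.029, 0.033 and 0.040 on 3 probes (SE 0.24), and on A_55_P1967076 it read 5.26, 5.19 and 5.08 in vehicle and 5.53, 5.01 and 5.12 in DMBA. Rpl23, another large subunit protein that binds Mdm2, differed by 0.037, 0.001 and -0.124 on 3 probes. Without DMBA 1, all 7 probes of these genes had a difference below 0, from -0.115 to -0.227. Most members lay below 0 in that setting, where 21.3% of them and 40.9% of all kept probes were higher.

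Few members lay lower after DMBA, and those with the largest differences again rested on single probes. For Rps15a, a small subunit protein, probe A_52_P491433 read -2.27, -3.56 and -2.15 in vehicle and -4.32, -3.54 and -2.95 in DMBA. The groups overlapped, and the difference was -0.94 (SE 0.53; limma adjusted p = 1). Its other 2 probes differed by 0.098 and 0.063. For Rps6, the small subunit protein that S6 kinases phosphorylate, probe A_55_P2008567 read 3.23, 3.02 and 2.93 in vehicle and 3.12, 2.20 and 2.56 in DMBA. That was a difference of -0.43 (SE 0.30; limma adjusted p = 1). Without DMBA 1 it was -0.68 (limma adjusted p = 0.696), while the other 2 Rps6 probes, near 0.07 with all arrays, then lay below 0 as most members did. Single probes of Rps25, Rpl31 and Rpl15, small, large and large subunit proteins, differed by -0.29, -0.29 and -0.11, and none had an unadjusted p under 0.05.

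**Figure D5:**
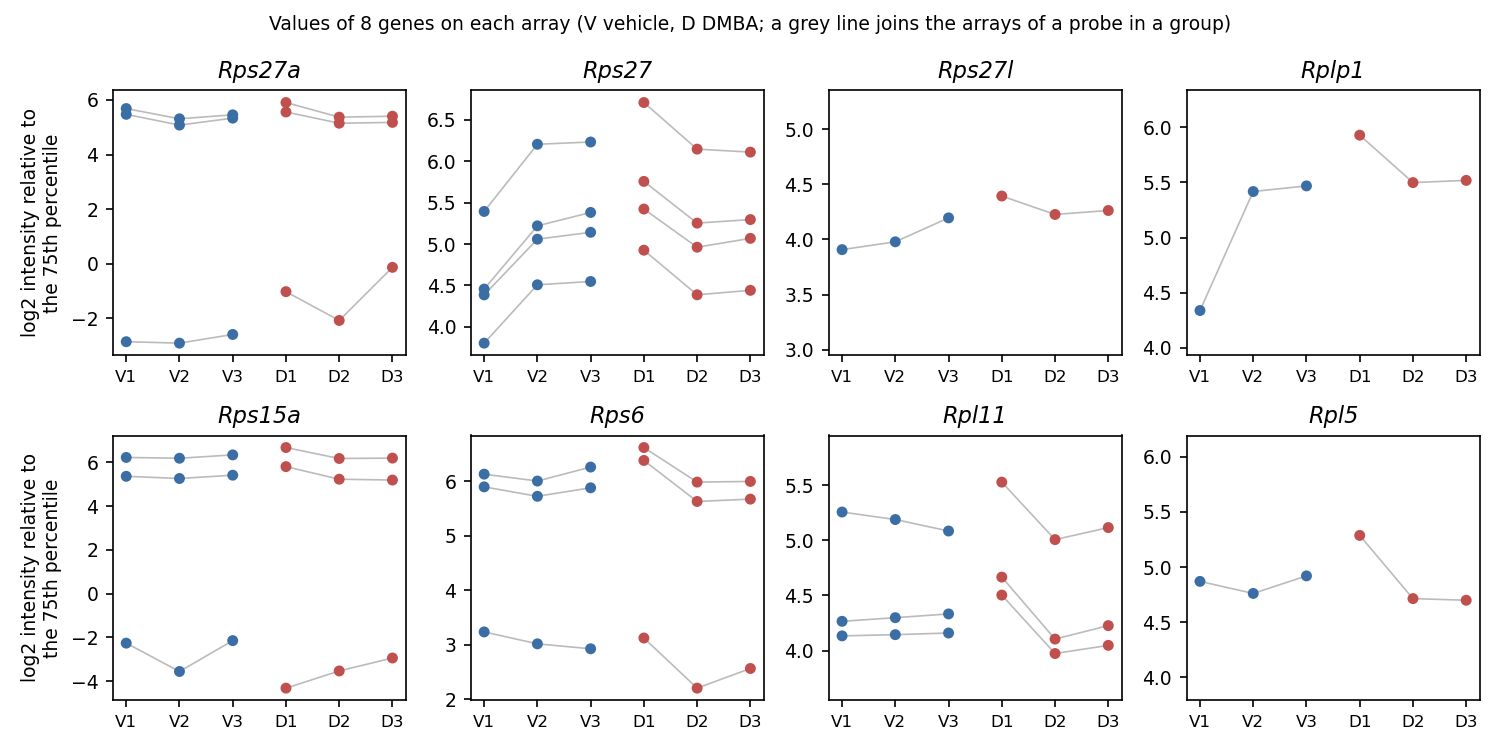
Level on each array (V vehicle, D DMBA), as log2 intensity relative to the 75th percentile of the array, of all kept probes of 8 genes; a line joins the arrays of 1 probe within a group and implies no order. Rps27 and Rplp1 are low on vehicle 1, most probes are high on DMBA 1, and only 1 of the 3 Rps27a probes separates the groups, at -2.87 to -2.60 in vehicle and -2.09 to -0.14 in DMBA.

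Paralogs of core proteins and their partners are given side by side, since the difference between them was not tested. Rps4l read 2.02, 1.21 and 1.53 in vehicle and 1.30, 1.29 and 1.23 in DMBA, a difference of -0.31 (SE 0.28), beside 0.057 (SE 0.28) for Rps4x. Rpl22l1 differed by 0.070 (SE 0.27) and the 2 probes of Rpl22 by -0.113 and -0.045. Rpl36al differed by 0.12 (SE 0.25) and Rpl36a by 0.013 to 0.092 on 3 probes. For Rpl10l, a paralog known for its role in the testis, 1 probe differed by 0.998 (SE 0.98) and was above background on only 4 arrays, and the other differed by -0.049; the 3 probes of Rpl10 differed by 0.13 to 0.17. Rpl7 differed by 0.018 to 0.069 on 4 probes and Rpl39 by -0.055 to 0.15 on 3. Rpl39 and Rpl3 are the partners of Rpl39l and Rpl3l, the paralogs that were not kept. Rpl3 read 5.42, 5.41 and 5.43 in vehicle and 6.03, 5.21 and 5.25 in DMBA, a difference of 0.076 (SE 0.29).

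Several probes for a gene mostly gave the same small difference. Of the 89 genes, 54 had more than 1 probe, and the spread between the probes of a gene was under 0.2 in 42 of them, with a median of 0.071. In 13 of the 54 the probes had both signs. The widest spreads were 1.71 in Rps27a, 1.05 in Rpl10l and 1.04 in Rps15a. Mouse ribosomal protein genes have many near-identical processed copies, and which copies or transcript forms a probe reads was not tested, so the value of a single probe is uncertain as a value of its gene.

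Genes that work with the ribosome gave the comparison from outside the family. Rack1 and Fau are cytosolic ribosomal proteins that the name pattern misses, and both were highest on DMBA 1. Rack1, a scaffold on the small subunit, read 4.97, 4.98 and 5.15 in vehicle and 5.61, 5.05 and 4.98 in DMBA, a difference of 0.18 (SE 0.26). Fau, whose mRNA encodes a ubiquitin-like protein fused to a small subunit protein, read 6.34, 6.45 and 6.54 in vehicle and 6.79, 6.37 and 6.37 in DMBA, a difference of 0.067 (SE 0.23). Translation factors, with 58 probes for 38 genes, had 38 higher and 20 lower, a median of 0.081 and 60.3% of probes highest on DMBA 1. Among them, the initiation factor subunit Eif2s1 differed by 1.06 (SE 0.47; limma adjusted p = 1), and the cap-binding protein Eif4e by -0.65 (SE 0.44). Eif3d, a subunit of initiation factor 3, read 3.49, 3.29 and 3.34 in vehicle and 2.98, 2.91 and 3.05 in DMBA, with no overlap and a difference of -0.39 (SE 0.21; limma adjusted p = 1). For Larp1 the 2 probes disagreed, at 0.67 (SE 0.38) and -0.52 (SE 0.37).

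Assembly factors and the machinery of ribosomal RNA synthesis had 79 probes for 58 genes: 35 probes lay higher and 44 lower with a median of -0.019, and on DMBA 1 the median probe stood 0.062 above vehicle, with 24.1% of probes highest there. Utp15, a part of the small subunit processome, read -0.85, -1.13 and -1.36 in vehicle and -0.55, -0.62 and -0.004 in DMBA, a difference of 0.72 (SE 0.28; limma adjusted p = 1, unadjusted under 0.05). Utp3, another processome factor, read 2.85, 2.37 and 2.54 in vehicle and 2.11, 2.19 and 2.23 in DMBA, a difference of -0.41 (SE 0.23). Mdn1, an ATPase of large subunit assembly, differed by 0.94 (SE 0.48) and Taf1b, a factor of RNA polymerase I, by -0.77 (SE 0.47). Mitochondrial ribosomal proteins, with 100 probes for 78 genes, had 61 higher and 39 lower and a median of 0.063, which was 0.048 without DMBA 1. Of these, 38% were highest on DMBA 1, and 8 had the DMBA group wholly above the vehicle group while 1 had it wholly below (4.79% and 4.25% of all kept probes). Mrpl41 read -1.17, -1.48 and -1.13 in vehicle and -0.95, -0.001 and 0.96 in DMBA, a difference of 1.27 (SE 0.50; limma adjusted p = 1, unadjusted under 0.05), Mrpl34 differed by 0.53 (SE 0.24), Mrps14 by -1.16 (SE 0.51) and Mrps7 by -0.44 (SE 0.31), all proteins of the mitochondrial ribosome. No gene of these lists passed limma's adjusted threshold, and whether the lists differ from the ribosomal proteins was not tested.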

How the data were processed

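The 6 1-colour mouse arrays comprised 3 from vehicle-treated and 3 from DMBA-treated mice, with groups taken from the sample titles. The deposited scanner files hold spot intensity after background correction by Agilent Feature Extraction 10.7.1.1, per the file headers and the submitters' processing notes. The deposited matrix of the series holds intensity divided by each array's 75th percentile and served as an alternative. Per the labels, cDNA was labelled with Cy3.

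Control spots (3671) were left out, outlier spots were set missing, and spots of a probe were averaged. For replicated spots, well above background means at least 1 in 2 of them. The log2 of the deposited processed intensity minus the log2 75th percentile of the array was tested per probe with limma 3.58.1 in R 4.3.3 (lmFit and eBayes, two-sided, no covariates), with Benjamini-Hochberg adjustment over all 44955 kept probes at 0.05. Probes were named through RefSeq accessions (28331 of 55681). The limma step was run on simulated data with noise drawn independently for each probe and array. Such data hold no shift shared by the probes of an array, so that case was not tested. P-values measure the spread between the 3 arrays of a group, and the number of arrays limits the precision. No member spot was saturated. Levels are not compared between probes.

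The named probes are up to 8 per direction with the smallest p, all probes of the 5S-linked and stalk proteins, of the paralogs and of their partners, and the 4 genes whose probes differ most. From each related list the rule took up to 2 genes per direction, and Cdkn1a, Ccng1 and Mdm2 were added for context. Members and lists were chosen with earlier results of these data known. The mean spot signal planned for the normexp alternative was replaced by the median spot signal, since the files used here carry the latter. Same-numbered arrays did not deviate together (r of 0.027, -0.009 and 0.04), so the numbers were not taken as pairs. Suprabasal marker sums ran from 4.18 to 5.88 in vehicle and 4.98 to 5.80 in DMBA, leukocyte sums from 2.74 to 3.56 and 2.80 to 3.08, and endothelial sums from 1.30 to 1.38 and 1.27 to 1.94. Protein and probe sequences were not used here. Some genes that the rules cover are not reported here, though the counts and medians include them.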

Additional observations from a re-analysis of the deposited data

How the results depend on the processing

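Under all 19 alternatives, 0 members passed limma's adjusted threshold, with 0 to 2 at an unadjusted p under 0.05 in either direction. The median difference was 0.101 with all arrays and stayed above 0 under every alternative except those that left out DMBA 1. Leaving out 1 array gave -0.075 (without DMBA 1) to 0.199 (without DMBA 2) for all members, -0.066 to 0.196 for the small and -0.078 to 0.20 for the large subunit. Leaving out both vehicle 1 and DMBA 1, chosen after seeing the data, gave -0.095. The share of probes above background as a covariate gave 0.31, quantile normalization 0.009, and normexp on the median spot signal with quantile normalization 0.01. The cause of these shifts was not tested.

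The count of members whose DMBA group lay wholly above the vehicle group, 3 with the main scaling, was 10 with normexp and quantile, 13 with quantile alone, 1 with median centring, 16 when centred on other strong probes and 5 without vehicle 1 and DMBA 1. The count below, 0 with the main scaling, was 3, 3, 1, 2 and 77 under the same alternatives. Without vehicle 1 and DMBA 1, groups of 2 arrays separate more often: 14.6% of all kept probes lay above and 23.2% below, against 2.81% and 43.3% of the members. Leaving out 1 array gave 3 to 25 above, the most without vehicle 3 (14% of members, 9.03% of all kept probes), and 0 to 46 below, the most without DMBA 1 (25.8% and 16.2%). Under the 4 alternatives that change the scaling, 3.49% to 5.04% of all kept probes lay above and 5.22% to 5.73% below. Of the members, 5.62% lay above with normexp and quantile (5.04% of all kept probes) and 7.3% with quantile alone (5%). The shares were 0.562% with median centring (4.01%) and 8.99% when centred on other strong probes (3.49%). Between 0.562% and 1.69% of the members lay below. At an unadjusted p under 0.05, the count of higher members was 2 with no filter on dim probes, 0 with 1 probe per gene, 0 without vehicle 1 and DMBA 1 and 1 to 2 when 1 array was left out, and that of lower members was 0 to 1. With the replicate number as a block, the median was again 0.101. Each number occurs once in each group, so this setting could not change the differences, only their p-values. Of 994 comparisons of the 54 named probes, 971 moved by less than the spread between arrays and 0 became called, while 160 had the opposite sign, none of them a called value.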
